A study of Saccharomyces cerevisiae with 12 samples.

Results

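The yapsins are a small family of aspartic proteases of the yeast cell surface. The 5 genes described here are YPS1 (YLR120C), YPS3 (YLR121C), MKC7 (YDR144C), YPS6 (YIR039C) and YPS7 (YDR349C). They were picked by their systematic names from the 6600 features of the count table. No cut on their values was used, but earlier results of these data were known. All 5 passed the filter on low values, which kept 5909 features. Yapsins are made as precursors that enter the secretory pathway, receive a glycosylphosphatidylinositol (GPI) lipid anchor and end up in the plasma membrane or the cell wall, where they cut other proteins next to basic residues. Cells that lack several of them have weakened walls and make less beta-glucan. YPS1 and YPS3 are known to be induced through the cell wall integrity (CWI) pathway, a cascade of surface sensors and protein kinases that ends in the MAP kinase Slt2 and the transcription factor Rlm1.

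The libraries are polyadenylated RNA of Saccharomyces cerevisiae BY4741, a haploid laboratory strain of mating type a with deletions in HIS3, LEU2, MET17 and URA3 that all groups share. Cells grew for 20 h at 30 °C in dilute YPD, a medium of yeast extract, peptone and glucose, either without addition (condition 1, control) or in the continuous presence of 1 µg/mL (condition 2), 2 µg/mL (condition 3) or 4 µg/mL (condition 4) of PeAfpA, an antifungal protein of the mould Penicillium expansum. Each condition has 3 replicates, called A, B and C and given in that order throughout, each grown in a flask of its own. The labels name the source as mycelia, a word that does not apply to the single budding cells of this strain.

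Totals per library lay between 7153797 and 10270183 counts. LEU2, URA3 and MET17 had 0 counts in all 12 libraries. HIS3, whose deletion in this strain is known to remove only a part of the gene, had 419.6 to 665.3 normalized counts per library, so that it does not check the label. The receptor STE2 of a cells had 1012 to 5185 normalized counts per library and the receptor STE3 of alpha cells 101.8 to 381.3. Both were highest in condition 4, with 3229 to 5185 and 213.1 to 381.3. Some libraries stand apart from their replicates. Squared differences between 2A and the other replicates of its condition were 157 and 170 times those of counting error, against 13.4 between 2B and 2C. They were 77.3 and 118 times for 3C and 111 and 164 times for 4C.

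The family is spread over 3 chromosomes of the R64 assembly, and each gene has a single coding segment on the minus strand. YPS1 lies on chromosome XII from 386511 to 388220 and codes for 569 residues. YPS3 lies next to it, from 388744 to 390270, with 508 residues. The start codon of YPS1 thus faces the 3′ end of YPS3 across 523 bases. MKC7 (744311 to 746101) and YPS7 (1172386 to 1174176) lie far apart on chromosome IV, with 596 residues each. YPS6 (430498 to 432111, with 537 residues) lies on chromosome IX, 7.78 kb from the chromosome end. A gene outside the 5, YPS5 (YGL259W, chromosome VII, 8470 to 8967), is a short relative of 165 residues that lies 8.47 kb from an end.

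Windows of 300 bases before the start codon were read from the RefSeq copy of R64 for the genes whose changes contrasted most, YPS3 on the one hand and YPS6 with its relative YPS5 on the other. They are chrXII:390271-390570 (minus strand) for YPS3, chrIX:432112-432411 (minus strand) for YPS6 and chrVII:8170-8469 (plus strand) for YPS5. Each is written 5′ to 3′ and ends at the base before the start codon. Capitals mark matches, on either strand, to the box of the cell cycle factor SBF (CGCGAAA) or to the stress response element (CCCCT).
YPS3: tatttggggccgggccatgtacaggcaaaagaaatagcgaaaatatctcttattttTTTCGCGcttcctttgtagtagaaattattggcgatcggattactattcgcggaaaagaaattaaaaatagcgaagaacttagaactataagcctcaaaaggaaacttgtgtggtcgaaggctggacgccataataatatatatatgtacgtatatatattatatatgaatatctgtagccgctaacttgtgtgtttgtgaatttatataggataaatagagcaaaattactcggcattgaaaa
YPS6: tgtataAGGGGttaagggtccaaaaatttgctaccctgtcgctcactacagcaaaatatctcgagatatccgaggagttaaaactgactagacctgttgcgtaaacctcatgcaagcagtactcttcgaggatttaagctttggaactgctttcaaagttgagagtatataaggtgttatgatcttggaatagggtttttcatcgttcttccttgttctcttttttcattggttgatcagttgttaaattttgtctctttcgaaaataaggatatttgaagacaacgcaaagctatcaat
YPS5: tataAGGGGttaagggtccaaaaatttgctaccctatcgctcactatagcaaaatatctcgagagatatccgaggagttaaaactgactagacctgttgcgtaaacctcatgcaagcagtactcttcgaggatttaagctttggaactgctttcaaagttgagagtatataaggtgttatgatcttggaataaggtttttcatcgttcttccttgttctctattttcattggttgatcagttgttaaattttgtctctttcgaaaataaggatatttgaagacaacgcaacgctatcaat

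The windows of YPS6 and YPS5 are near copies of each other. Of 298 aligned bases 293 were identical (98.3%), while the windows of the other pairs among the 6 genes had identities of 52.0% to 64.9% in the same global alignment. A motif for Rlm1 (CTA and TAG with any 4 bases between them) was searched too. The SBF box was found once, in YPS3, with its first base 244 bases before the start codon, and 3.95% of the 6001 windows of this length in the genome hold it. The stress response element was found in YPS6 and YPS5, 294 and 296 bases before the start codon, and in 22.2% of all windows. The Rlm1 motif, present in 5.63% of all windows, was not among the letters of the windows of YPS1, YPS3, MKC7, YPS6, YPS7 or YPS5. These are matches of letters only. The motifs do not overlap each other in these windows.

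The coding sequences differ enough to be counted apart, with 1 exception. Between any pair of the 5 yapsins the longest shared run was 14 bases, far below the read length of 75 bases, and identity was 58.3% to 65.1%. YPS5 had 94.8% identity to YPS6 over 498 aligned bases, with a shared run of 113 bases. The values of YPS6 and YPS5 are therefore uncertain to the extent that the counting could split or drop reads of this stretch. By blastn, YPS6 also aligned to chromosome VII beyond YPS5, with 83.1% identity over 1136 bases and 82.1% over 312. On chromosome XVI it aligned with 70.1% identity over 358 bases. Runs shared with these stretches outside YPS5 were not measured.

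At 4 µg/mL the family divided. YPS1, YPS3 and MKC7 rose, YPS6 fell and YPS7 was not called. By edgeR's quasi-likelihood test, 3 of the 5 genes were upregulated and 1 was downregulated in condition 4 against condition 1, at an adjusted p under 0.05. Of the 5909 genes tested 42.2% were called, 19.3% as higher and 23% as lower, so that 4 of 5 is above the share of all genes, in a list too short for more than that. The median log2 fold change of the 5 genes was 1.45, against -0.04 over all genes. Treated and control libraries did not overlap for the same 4 genes, as for 59.1% of all genes (27.4% higher and 31.7% lower).

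YPS3, which codes for a GPI-anchored protease like Yps1, changed most. Its normalized counts (counts scaled to a common library size with TMM factors) were 389.9, 265.0 and 317.7 in 1A to 1C, the controls, and 5532, 6468 and 9004 in 4A to 4C. Every library of condition 4 was thus far above every control. The log2 fold change was 4.43 (standard error, SE, 0.81, with an adjusted p of 0.0020 by edgeR), a 21.6-fold rise with a 95% interval of 6.44 to 72.4. It was number 9 in size among the 1139 genes called higher.

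YPS1, the family's best studied protease, which sheds the outer part of the signalling mucin Msb2, had 690.0, 518.1 and 716.0 normalized counts in 1A to 1C. In 4A to 4C it had 4879, 5907 and 7855, with no overlap and again the highest value in 4C. The log2 fold change was 3.28 (SE 0.70, adjusted p = 0.0042 by edgeR), a 9.68-fold rise with a 95% interval of 3.39 to 27.6, number 35 among the genes called higher.

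MKC7, whose protease shares functions with Yps1, was the lowest of the family in controls. It had 120.4, 129.5 and 167.6 normalized counts in 1A to 1C and 257.8, 310.5 and 576.4 in 4A to 4C. The groups did not overlap, and 4C was far above its replicates. The log2 fold change was 1.45 (SE 0.27, adjusted p = 0.0024 by edgeR), a 2.73-fold rise, number 252 among the genes called higher. Without 4C it was 1.04.

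YPS6, a presumed surface protease of which less is known, went the other way. It had 588.1, 782.2 and 826.8 normalized counts in 1A to 1C and 249.3, 192.2 and 40.8 in 4A to 4C. The libraries did not overlap, and 4C, the highest of condition 4 for the 3 genes that rose, was the lowest here. The log2 fold change was -2.17 (SE 0.56, adjusted p = 0.010 by edgeR), number 132 in size among the 1357 genes called lower. This is a level of 0.222 times that of the controls, with a 95% interval of 0.0954 to 0.518.

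YPS7, a presumed protease with a membrane anchor, had 1070, 1103 and 1067 normalized counts in 1A to 1C and 1085, 1028 and 1076 in 4A to 4C. The groups overlapped, and their means of 1079.8 ± 20.1 and 1063 ± 30.6 (SD, n = 3 each) differed by less than the spread. The log2 fold change was -0.02 (SE 0.11, adjusted p = 0.88 by edgeR), with a 95% interval of 0.83 to 1.17-fold, which excludes changes as large as those of the other 4 genes. Its sign depended on the scaling.

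**Figure D1:**
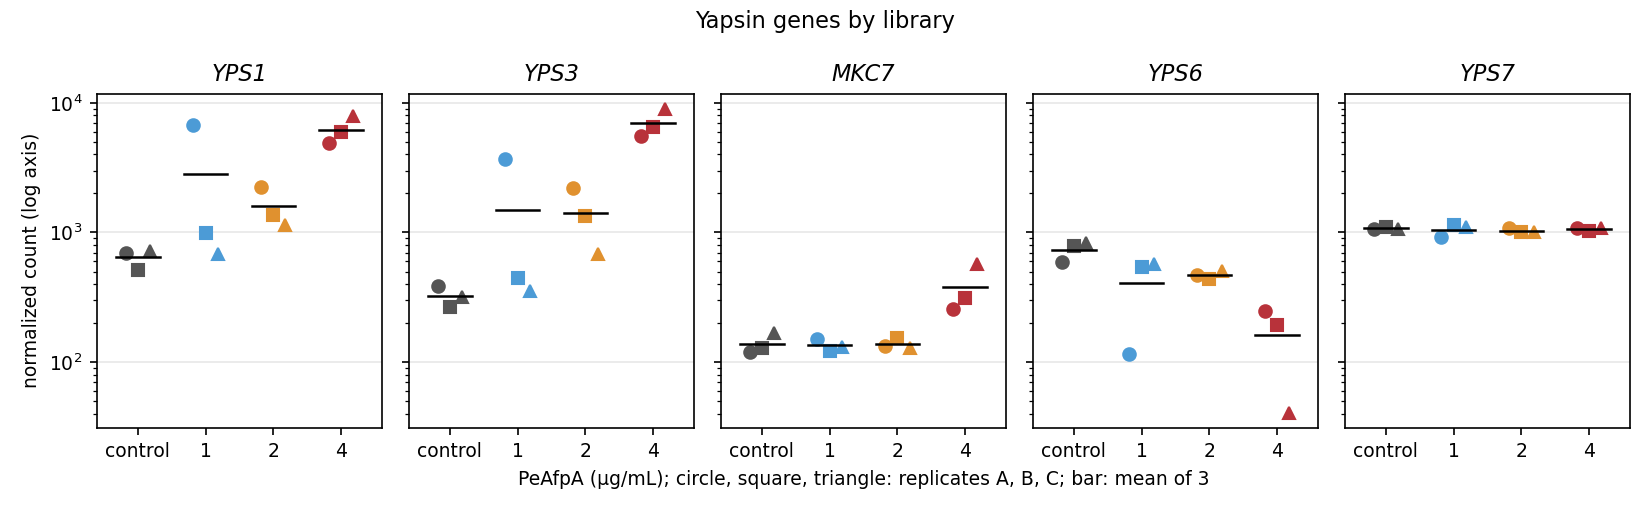
Normalized counts of the 5 yapsin genes (vertical log axis) in each of the 12 libraries, by PeAfpA concentration in µg/mL, with replicates A, B and C as circle, square and triangle and the mean of 3 as a bar. YPS1 and YPS3 are high in all libraries of 4 µg/mL and in 2A, YPS6 is low in the same libraries, MKC7 is raised in condition 4 alone, and YPS7 lies between 922 and 1136 throughout.

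For YPS1, YPS3, MKC7 and YPS6 the call in condition 4 held in each of 21 other fits, those that left out 1 of the 12 libraries included. The libraries of condition 4 also differ from the controls in genes of carbon source. ADH2, the alcohol dehydrogenase that is repressed while glucose lasts, named here after its values were seen, had 15271 to 32179 normalized counts in controls and 97.5 to 220.6 in condition 4. Whether the difference in the yapsins follows the state of the carbon source was not tested. In bulk RNA, a larger share of cells with much YPS1 or YPS3 RNA cannot be told apart from more of it in every cell.

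Exact permutation tests of the normalized counts of each gene gave p = 0.1 for YPS1, YPS3, MKC7 and YPS6, which is the smallest that 3 against 3 libraries allow, and p = 0.6 for YPS7.

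At 2 µg/mL no yapsin passed the threshold. The comparisons at the 3 concentrations share the same controls. EdgeR's quasi-likelihood test called 0 of the 5 genes, and 0% of all 5909 genes, in condition 3 against condition 1. At an unadjusted p under 0.05, 9.7% of all genes were found, YPS3 among them. DESeq2 over the 12 libraries also called 0 of the 5, with 0.576% of all genes called. YPS3 had 2202, 1328 and 687.1 normalized counts in 3A to 3C, each above the highest control (log2 fold change 2.12, SE 0.73, adjusted p = 0.44 by edgeR). The values of YPS1 were 2259.9, 1368.5 and 1147 in the same libraries, also all above the controls (1.31, SE 0.65, adjusted p = 0.53 by edgeR). In both genes 3A was highest and 3C lowest.

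YPS6 had 473.1, 436.8 and 505.9 normalized counts in 3A to 3C, each below every control (log2 fold change -0.63, SE 0.53, adjusted p = 0.70 by edgeR). For these 3 genes the groups thus did not overlap, as for 17.9% of all genes (8.66% higher and 9.19% lower), and each gave p = 0.1 in the exact permutation test. MKC7 had 134.0, 153.9 and 127.8 normalized counts, inside the range of the controls, with a log2 fold change of -0.01 and a 95% interval of -0.60 to 0.59. Its response at 4 µg/mL had no visible counterpart at 2 µg/mL. YPS7 had 1085, 1009 and 1009 (log2 fold change -0.06).

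Calls for condition 3 depended on the test and on 2 libraries. EdgeR restricted to conditions 1 and 3 called YPS3 (adjusted p = 0.035). Limma-voom with sample quality weights called YPS3 and YPS1 (adjusted p = 0.0025 and 0.0082), and so did edgeR without 2A and 3C, a setting chosen after seeing the data, with log2 fold changes of 2.46 and 1.52 (adjusted p = 0.0020 and 0.010).

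**Figure D2:**
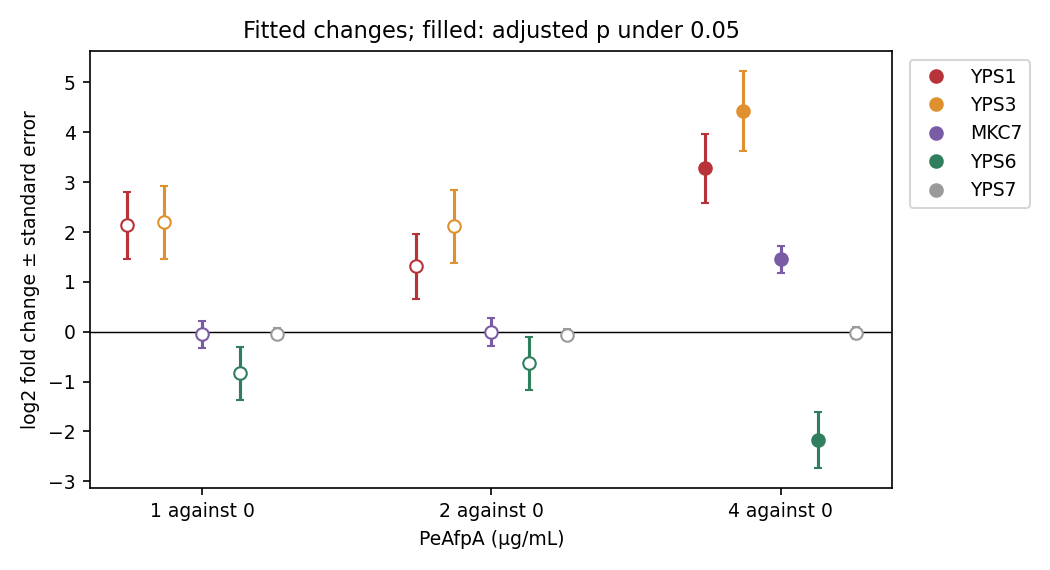
Log2 fold changes of the 5 yapsin genes against control (vertical axis) with standard errors, from the edgeR fit over the 12 libraries, at 1, 2 and 4 µg/mL PeAfpA. Filled points, all at 4 µg/mL, are the 4 with an adjusted p under 0.05: YPS3 at 4.43, YPS1 at 3.28, MKC7 at 1.45 and YPS6 at -2.17.

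At 1 µg/mL the means of YPS1, YPS3 and YPS6 were set largely by a single culture. YPS1 had 6774, 998.3 and 685.0 normalized counts in 2A to 2C, and YPS3 had 3660, 444.1 and 351.4. For YPS1, 2A lay within the range of condition 4, and for YPS3 it lay below that range and far above the controls, while 2C was within the range of the controls for both. YPS6 had 115.8 normalized counts in 2A, below 4A and 4B, against 543.2 and 570.1 in 2B and 2C. MKC7, with 150.3, 122.0 and 131.5, and YPS7, with 922.0, 1136 and 1099, did not set 2A apart in this way, although 2A was the lowest of the 12 libraries for YPS7.

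EdgeR's quasi-likelihood test called 0 of the 5 genes and 0% of all genes in condition 2 against condition 1, with 9.07% of all genes at an unadjusted p under 0.05, YPS1 and YPS3 among them. DESeq2 gave an adjusted p to YPS1 and YPS3 alone among the 5 and called neither, with 0.305% of the genes it gave an adjusted p called. The log2 fold changes of 2.13 for YPS1 (SE 0.67, adjusted p = 0.49 by edgeR) and 2.19 for YPS3 (SE 0.74, adjusted p = 0.49) went down to 0.40 and 0.30 without 2A. For YPS6 the value of -0.84 (SE 0.54, adjusted p = 0.60) went to -0.39 without 2A. Its 3 libraries were all below the controls, which held for 8.53% of all genes (16.1% did not overlap in either direction). MKC7 and YPS7 had log2 fold changes of -0.05 and -0.04.

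Genes of carbon source were also read in 2A, where YPS1 and YPS3 were high and YPS6 was low. Whether they bear on the yapsins there or in condition 3 was not tested. ADH2 had 27061 normalized counts in 2A, inside the range of the controls. The glyoxylate cycle genes ICL1 and MLS1, also named after their values were seen, had 66411.5 and 24632 in 2A, the first above and the second below every control, against at most 1504 and 580.3 in condition 4. YPS1 and YPS3 were above the controls in 3A to 3C, where ADH2 had 9127, 12636 and 27030 normalized counts, the first pair below every control and the last inside their range.

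Between adjacent concentrations, edgeR called 0 of the 5 genes for 2 against 1 µg/mL (0% of all genes, with 3.23% at an unadjusted p under 0.05, and 0.0169% called by DESeq2, none of the 5). It called 4 of 5 for 4 against 2 µg/mL, where 34.1% of all genes were called (15.4% higher and 18.7% lower). The log2 fold changes between 4 and 2 µg/mL were 2.32 for YPS3 (adjusted p = 0.030), 1.97 for YPS1 (adjusted p = 0.038), 1.46 for MKC7 (adjusted p = 0.0036) and -1.54 for YPS6 (adjusted p = 0.049). Of these calls only that of MKC7 was kept in all fits that left out 1 library. YPS3 was lost without 3B, 3C, 4B or 4C, with adjusted p-values up to 0.092. YPS1 was lost without 1A, 1B, 1C, 3A, 3B, 3C, 4B or 4C (up to 0.11). YPS6 was lost in these 8 fits and without 2B (up to 0.13). Without 4C its log2 fold change was -1.09.

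Per length, the order of the family turned over. In controls YPS7 had the highest level, with 602.9 ± 11.2 normalized counts per kb (SD, n = 3), followed by YPS6 with 453.8 ± 78.6 and YPS1 with 375.1 ± 62.9. YPS6 and YPS1 overlapped in this order, with YPS1 above YPS6 in 1A only. YPS3 (212.3 ± 41.1) and MKC7 (77.7 per kb) were below them in each control. In condition 4 YPS3 (4585 ± 1176.5) was above YPS1 (3634 ± 883.9) in all 3 libraries, YPS7 (593.5 ± 17.1) was next, and MKC7 (213.0 ± 95.4) and YPS6 (99.6 ± 66.7) overlapped at the bottom.

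Among the 5662 genes with a known length, YPS3 thus went from a level above 17.8% of genes in controls to one above 92.4% in condition 4, and YPS1 from 34.0% to 91.0%. YPS6 went from 42.0% to 8.78%, MKC7 from 6.08% to 21.2% and YPS7 from 52.9% to 54.9%. The summed level of the 5 genes was 1649 to 1828 normalized counts per kb in the controls and 7380.2 to 11439 in condition 4. It was 1671 and 1914 in 2C and 2B, 7029 in 2A, and 2069, 2590 and 3738 in 3C, 3B and 3A.

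As shares of that sum, YPS7 and YPS6 held 35.1% ± 2.36 and 26.3% ± 4.16 in controls (SD, n = 3) and 6.72% ± 1.48 and 1.23% ± 0.944 in condition 4. YPS1 and YPS3 held 21.7% ± 2.93 and 12.3% ± 2.44 in controls. In condition 4 they held 39.8% ± 0.929 and 50.1% ± 1.34, so that these neighbouring genes together held most of the family's counts per kb. In condition 3, YPS3 was first in 3A and 3B and YPS1 in 3C.

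**Figure D3:**
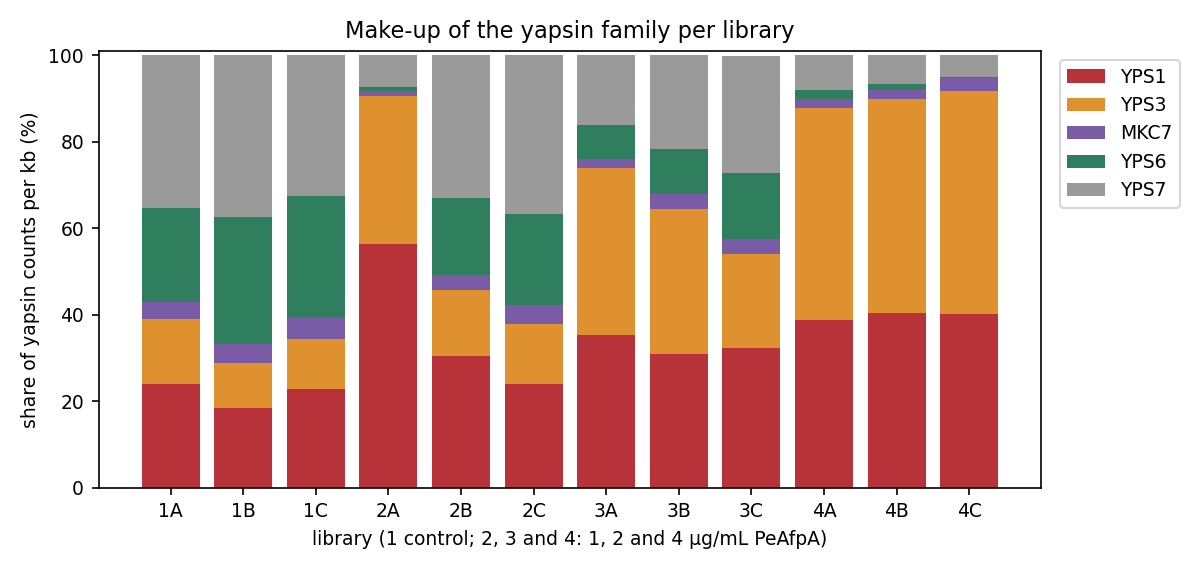
Share in percent of each of the 5 yapsin genes in the summed normalized counts per kb of the family, for each library (1 control, 2 to 4 the rising concentrations). YPS7 and YPS6 make up most of the bars of the controls, 2B and 2C, and YPS1 with YPS3 most of those of conditions 3 and 4 and of 2A.

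The ratio between the neighbours YPS3 and YPS1 was compared too. The log2 ratio of YPS3 to YPS1, per kb and within each library, was -0.66, -0.80 and -1.01 in 1A to 1C and 0.34, 0.29 and 0.36 in 4A to 4C. It was thus negative in every control and positive in every library of condition 4, where the spread was 0.034 (SD, n = 3). The mean difference was 1.16, with p = 0.1 in a two-sided exact permutation test, its lowest possible value here. In condition 3 the ratio was 0.13, 0.12 and -0.58 in 3A to 3C, all above the controls (mean difference 0.71, exact permutation p = 0.1).

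In condition 2 the ratio was -0.73, -1.01 and -0.80 in 2A to 2C (mean difference -0.02, exact permutation p = 1). Library 2A, with both genes far above the controls, therefore had a ratio in the range of the controls. This sets 2A apart from 4A to 4C within the pair. The 3 comparisons of the ratio share the controls and were not adjusted for their number, since none can pass below 0.1.

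**Figure D4:**
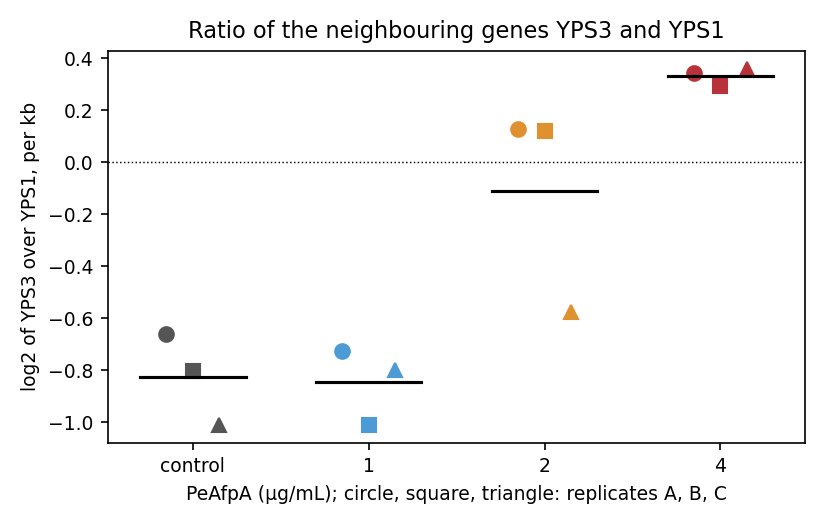
Log2 ratio of YPS3 to YPS1 per kb (vertical axis) in each library by PeAfpA concentration in µg/mL, with replicates A, B and C as circle, square and triangle and the mean of 3 as a bar. The ratio lies from -1.01 to -0.66 at 0 and 1 µg/mL, 2A included, and from 0.29 to 0.36 at 4 µg/mL.

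Genes next to the yapsins were looked at for changes shared along the chromosome. SRN2, an endosomal sorting gene 335 bases from YPS1, went down (log2 fold change -0.69, SE 0.20, adjusted p = 0.018 by edgeR) while YPS1 went up. YLR122C, on the other side of YPS3, had 0 to 32 counts per library and was not called (adjusted p = 0.067). The neighbours of MKC7, SAN1 and TAF12, were not called, with log2 fold changes of 0.10 and -0.14. Beside YPS6, GTT1, a glutathione transferase gene 5984 bases away, had a log2 fold change of -1.39 (SE 0.33, adjusted p = 0.0071) and so fell too, and PAU15, on the side of the chromosome end, had 6, 13 and 7 counts in the controls and 1, 0 and 0 in condition 4. Next to YPS7, PAL1 was not called (0.58, adjusted p = 0.054) and ATP22 was called lower, close to the threshold (-0.31, adjusted p = 0.048).

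Of 4 other aspartic proteases of yeast, 2 were called higher and 1 lower in condition 4. Over all genes, 19.3% were called higher and 23% lower. BAR1, the secreted protease with which a cells degrade alpha factor, had 251.9, 322.8 and 266.4 normalized counts in the controls and 945.6, 1665 and 2822 in 4A to 4C (log2 fold change 2.69, SE 0.36, adjusted p = 0.00038 by edgeR). PEP4, the vacuolar proteinase A, rose as well (0.70, SE 0.26, adjusted p = 0.047). DDI1, which carries a fold like that of retroviral proteases, was not called (-0.27, adjusted p = 0.11).

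YPS5, the near copy of a part of YPS6, fell too. Its counts were 84, 83 and 119 in the controls and 32, 13 and 2 in 4A to 4C (log2 fold change -2.53, SE 0.64, adjusted p = 0.0093 by edgeR). In 2A it had 15 counts, against 64 and 92 in 2B and 2C, so that it was low in the same libraries as YPS6. Reads of the stretch that both genes share could contribute to this likeness, and their part was not tested.

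For each yapsin, the genes with the most similar profile were taken as those with the smallest root mean square difference of centred log2 CPM values over the 12 libraries, among 5320 genes with a mean of at least 10 CPM. For YPS1 they were CHS1 (chitin synthase I, 0.227), PSA1 (which makes GDP-mannose, 0.274) and TOS1 (a wall protein, 0.275). For YPS3 they were SCW10 (a wall protein of the glucanase type, 0.259), SRL1 (a mannoprotein, 0.359) and CRH1 (which links chitin to glucan, 0.374). YPS1 was number 7 for YPS3 and YPS3 number 39 for YPS1, at a difference of 0.531. MKC7 was nearest to BFR1 (an RNA-binding protein of polysomes), FRK1 (a kinase) and CDC5 (the polo kinase of mitosis) (0.151 to 0.181). YPS6 was nearest to DFP1, THI11 and YLR031W (0.333 to 0.359), and THI11 has near-identical copies between which reads can be split. YPS7 was nearest to COQ6 (coenzyme Q synthesis), MTM1 (a mitochondrial carrier) and TIF6 (ribosome assembly) (0.0696 to 0.0766), none of which was called. Each likeness is over libraries in which condition 4 stands apart.

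Genes that act on yapsins or beside them were taken from short lists. Of 17 genes for enzymes that build the GPI anchor, 2 were called higher in condition 4, 2 lower and 13 not, with a median log2 fold change of 0.19. That is a smaller share called than the 42.2% of all genes. GPI18 and MCD4, which add a mannose and an ethanolamine phosphate to the anchor, rose (2.31 and 2.07, adjusted p = 0.018 and 0.0066 by edgeR), and PBN1, which acts in adding the first mannose, fell (-0.91, adjusted p = 0.0019). Of the 5 subunits of the transamidase that attaches anchors to proteins, GPI16 was called lower (-0.38, adjusted p = 0.044) and 4 were not called. Of 6 remodelling genes, TED1 was called higher (0.53, adjusted p = 0.029). KEX2, KEX1 and STE13, the Golgi proteases that process secreted precursors beside the yapsins, were not called, with log2 fold changes of -0.24 to 0.20.

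Among genes whose products yapsins are reported to cut or help to mature, MSB2 rose by 1.65 on the log2 scale (SE 0.26, adjusted p = 0.00093) and GAS1, a glucan-elongating enzyme with a GPI anchor, by 2.56 (SE 0.50, adjusted p = 0.0028), by edgeR. The alpha factor genes were not called. MF(ALPHA)1, which alpha cells use, had a mean of 177 normalized counts in the controls and 193.1 in condition 4, and MF(ALPHA)2 had 4.68 and 14.9. The genes of beta-1,3-glucan synthase rose, all 3 of them, FKS1 by 2.22, RHO1 by 1.70 and GSC2 by 1.66 (adjusted p = 0.0058, 0.0065 and 0.016). In condition 4, 19.3% of all genes were called higher, and both of these lists are short.

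Of 18 output genes of the CWI pathway, a list that holds no yapsin, 16 were called higher in condition 4 and 0 lower. Their median log2 fold change was 1.65. Over all genes, 19.3% were called higher and 23% lower, with a median of -0.04. Some of the output genes had been named for these libraries before the list was made, so their direction is not independent evidence. NCW2 (4.57, adjusted p = 0.0034), CIS3 (3.90, adjusted p = 0.0030) and CRH1 (3.62, adjusted p = 0.0026), all of the cell wall, had the largest changes. Of 16 genes for sensors, kinases and other members of the pathway, 6 were called higher, 4 lower and 6 not (median 0.08). The share called lower was close to the 23% of all genes. The sensor genes WSC2 and MID2 and the MAP kinase gene SLT2 rose most (3.45, 2.05 and 2.03, adjusted p = 0.00082, 0.0018 and 0.0015). Called lower were ROM1, MKK2, MKK1 and PKC1 (-0.99, -0.85, -0.66 and -0.35, adjusted p = 0.0021, 0.0041, 0.016 and 0.037 by edgeR). RLM1 itself rose by 0.55 (adjusted p = 0.047). SLT2 stands in both CWI lists, FKS1 among the outputs and the synthase genes, and RHO1 among these 16 genes and the synthase genes. In conditions 2 and 3, where edgeR called 0 genes of all, the outputs had median log2 fold changes of 0.77 and 0.49. How far the median of condition 2 rests on 2A was not tested.

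**Figure D5:**
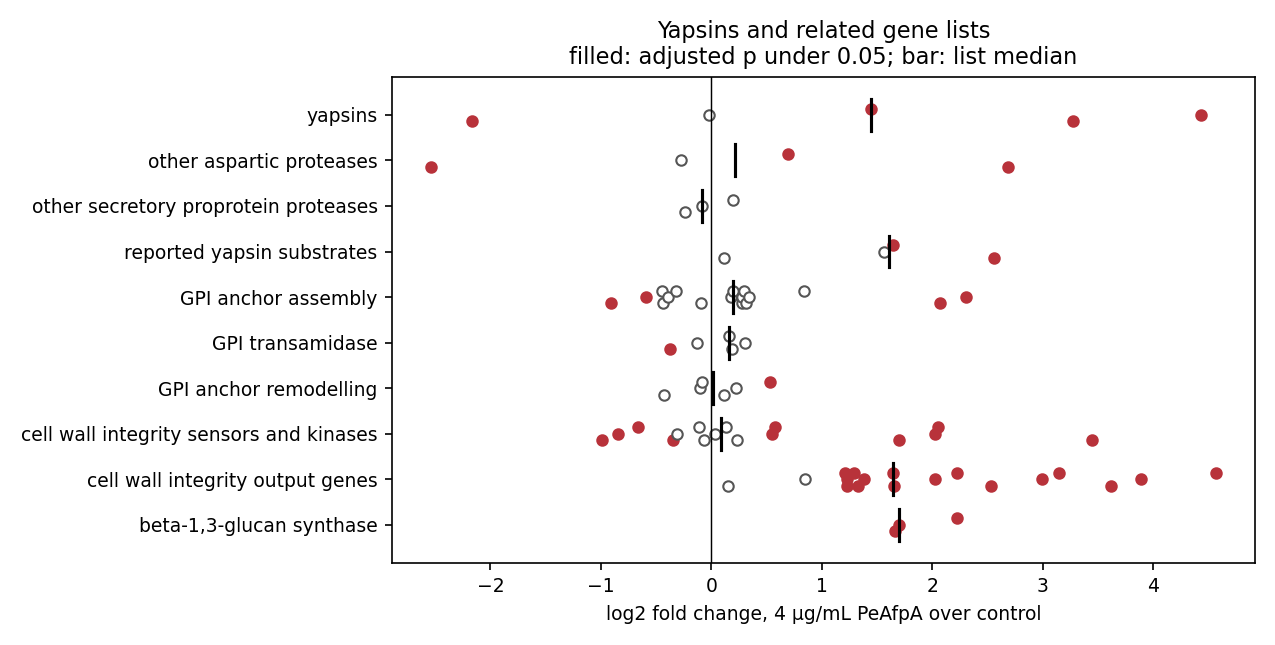
Log2 fold change of condition 4 over control (horizontal axis) for each gene of the yapsin family and of 9 related lists (rows), filled where the adjusted p is under 0.05, with the list median as a bar. The yapsins reach from -2.17 to 4.43, the 18 CWI output genes lie at or above 0.15, and the GPI anchor lists are centred near 0.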

How the data were processed

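Per the labels and the study's methods, the authors used Trimmomatic 0.39 on single-end reads, Bowtie2 2.3.2 with the R64 genome and HTSeq 0.9.0, and deposited unnormalized read counts per gene. How reads were treated by strand, overlap and mapping quality is not given in the sources used here. Of 6600 features, 5917 matched RefSeq's R64 annotation and 683 (0.172% to 0.323% of counts) did not. The filter was a mean of 1 TPM or more, or of 1 CPM for features without a length. EdgeR 4.0.16 (R 4.3.3) with TMM factors fitted 4 conditions over 12 libraries, with Benjamini-Hochberg adjustment over 5909 genes and a threshold of 0.05. SE was taken as the log2 fold change, without its sign, over the root of F. There were 20 alternatives (DESeq2 1.42.0, limma 3.58.1, other filters and scalings, a replicate block, each library left out) and 1 added after seeing the data. Single values were tested by exact permutation (scipy 1.17.1), near copies were searched with blastn 2.17.0, and sequences were aligned with Biopython 1.88. The edgeR fit was tested on simulated data in which no library was set apart, unlike 2A, 3C and 4C here. No result given here rests on that test. The members, the lists and the naming rule (members, other aspartic proteases, the 3 largest called changes of a list, neighbours, the 3 most similar profiles) were chosen with earlier results of these data known. RLM1, ROM1, MKK2, MKK1, PKC1, KEX2, KEX1, STE13, ADH2, ICL1 and MLS1 were named after their values were seen. Intervals and p-values of edgeR rest on a spread between cultures that was estimated over all 12 libraries, 2A included. For YPS1 in condition 4 against control, the SE was 0.70 with all libraries and 0.29 without 2A. Exact permutation p-values come from reassigning libraries to groups and do not measure that spread.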

Additional observations from a re-analysis of the deposited data

How the results depend on the processing

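The 4 calls of condition 4 against control, YPS1, YPS3, MKC7 and YPS6, were made in each of the 21 alternatives, with log2 fold changes of 3.05 to 3.42, 4.20 to 4.59, 1.04 to 1.67 and -2.62 to -1.71. Scaling by library size alone moved the median over all genes in that comparison from -0.04 to -0.24 on the log2 scale. YPS7, not called in any of them, became 0.0155 with DESeq2 and 0.0157 with RLE factors, and -0.0376 to 0.000852 with 1 library left out.

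At 2 µg/mL against control, the number of yapsins called was 1 when edgeR was fitted to those conditions alone, 2 with limma-voom and 2 without 2A and 3C, and 0 in all other alternatives. MKC7, never called there, became 0.0105 with DESeq2, 0.0119 with those conditions alone, 0.0103 with RLE factors and 0.062 without 2A and 3C, and -0.103 to 0.157 with 1 library left out. At 1 µg/mL, where no alternative called a yapsin, MKC7 ranged from -0.144 to 0.113 and YPS7 from -0.0953 to 0.0598 with 1 library left out, and YPS7 became 0.0566 with limma-voom and 0.0598 without 2A and 3C. The log2 ratio of YPS3 to YPS1 in that comparison ranged from -0.111 to 0.063 with 1 library left out.

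For 2 against 1 µg/mL the number of yapsins called was 1 with limma-voom and 1 without 2A and 3C, in both YPS3. YPS3 became 1.94 with limma-voom, 2.16 without 2A and 3C and 0.153 by library size alone, and -0.56 to 1.82 with 1 library left out. YPS1 became 0.919 with limma-voom, 1.11 without 2A and 3C, and -1.29 to 0.923 with 1 library left out. The highest value of each came from leaving out 2A. For 4 against 2 µg/mL the number called was 1 to 4 with 1 library left out, and 3 with RLE factors or library size alone, where YPS6 was lost (adjusted p = 0.051 and 0.066 by edgeR). The causes were not tested.

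Libraries with the same replicate number did not visibly deviate together (correlations of -0.366 to 0.247, over 0.1 in 6 of 18 pairs). Pairs with different numbers had correlations of -0.464 to 0.465, over 0.1 in 13 of 36. No pairing by number was thus visible, which 3 libraries per condition cannot exclude. With the replicate number as a block, edgeR called 4 yapsins for condition 4 against control, 0 at 2 and 1 µg/mL, 0 between 2 and 1 µg/mL, and 3 between 4 and 2 µg/mL, where YPS6 was lost (adjusted p = 0.077). In the block fit MKC7 was 0.0174 at 2 µg/mL against control and YPS3 was 0.315 for 2 against 1 µg/mL. With 3 libraries per condition no exact test could pass 0.05, and 2A, 3C and 4C limit what the means of their conditions show.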
